A study of Rattus norvegicus with 15 samples.

Results

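The Gadd45 family holds 3 genes in the rat, Gadd45a, Gadd45b and Gadd45g, and all 3 members were measured in the nucleus accumbens, out of 14497 genes that the array annotation pairs with 1 symbol. Each member has 1 probe set, chosen by its symbol alone, and all 3 were among the 11778 genes kept after a filter on low values. The nucleus accumbens is the part of the ventral striatum studied for its role in reward and drug seeking. The study follows the incubation of cocaine craving, in which cue-induced drug seeking grows over weeks without the drug. There were 15 arrays from male Sprague-Dawley rats, in 5 groups of 3. Group 30C self-administered cocaine over 10 days in daily sessions of 6 hours, spent 30 days in withdrawal and then took an extinction test in which cue-induced cocaine seeking was assessed. Group 30W had the same cocaine and 30 days of withdrawal without the test. Groups 1C and 1W correspond to them, with and without the test, after 1 day of withdrawal. Group Sal self-administered saline under the same conditions, and its labels give neither a withdrawal time nor a test. All rats carried jugular catheters, placed after a cannula implantation. Since no label states how many rats stand behind an array, p-values measure only the spread between these arrays.

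Gadd45 proteins are small, acidic, mostly nuclear proteins without known enzyme activity, named for their induction by growth arrest and DNA damage. They bind and activate the kinase MAP3K4, which feeds the p38 and JNK cascades, and they bind the cell cycle proteins PCNA, p21 and the CDK1-cyclin B1 complex. They also take part in active DNA demethylation by bringing repair enzymes to methylated sites. Gadd45a is the member best known for its induction by DNA damage. In mouse hippocampus Gadd45b is an activity-induced gene needed for demethylation at Bdnf and Fgf1 regulatory regions. Gadd45g, first described as a cytokine-induced gene, is likewise induced by neuronal activity in rodents.

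The start regions of the 3 genes are shown because Gadd45b and Gadd45g varied together over the arrays while Gadd45a did not. Each runs from 250 bases before to 50 bases after the RefSeq start, 5′ to 3′ on the gene's strand, on build GRCr8. Gadd45a lies at chr4:97486750-97487049, Gadd45b at chr7:9430669-9430968 and Gadd45g at chr17:13530302-13530601, all on the minus strand. Capitals mark the octamer ATTTGCAT, the CCAAT box, the TATA box TATAAA and the E-box CACGTG.
Gadd45a: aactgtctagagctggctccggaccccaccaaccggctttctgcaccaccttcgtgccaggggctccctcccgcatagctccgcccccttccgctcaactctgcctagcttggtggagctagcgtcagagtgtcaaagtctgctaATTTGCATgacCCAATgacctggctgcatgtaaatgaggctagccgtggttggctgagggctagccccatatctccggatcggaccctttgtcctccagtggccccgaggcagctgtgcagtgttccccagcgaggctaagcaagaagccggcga
Gadd45b: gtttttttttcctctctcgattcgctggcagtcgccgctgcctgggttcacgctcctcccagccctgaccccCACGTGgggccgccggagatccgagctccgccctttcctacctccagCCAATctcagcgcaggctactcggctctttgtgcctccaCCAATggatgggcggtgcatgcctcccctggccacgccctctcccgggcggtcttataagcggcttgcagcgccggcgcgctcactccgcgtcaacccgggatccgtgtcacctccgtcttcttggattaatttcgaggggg
Gadd45g: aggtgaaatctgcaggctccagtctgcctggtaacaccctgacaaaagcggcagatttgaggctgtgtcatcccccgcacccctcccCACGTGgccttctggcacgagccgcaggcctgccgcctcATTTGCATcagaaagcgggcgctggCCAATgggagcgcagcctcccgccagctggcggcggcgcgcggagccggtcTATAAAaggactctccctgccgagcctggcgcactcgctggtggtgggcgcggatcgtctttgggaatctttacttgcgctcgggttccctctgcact

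The octamer, which POU-domain factors such as Oct-1 bind, is present in Gadd45a and Gadd45g but not in the Gadd45b window. It spans positions -105 to -98 in Gadd45a and -124 to -117 in Gadd45g, counted from the start, and 1.64% of 27457 promoters of the same length hold it on either strand. All 3 windows hold a CCAAT box, Gadd45b a pair of them, against 37.7% of promoters. The E-box is in Gadd45b (from -178) and Gadd45g (from -163), against 6.65% of promoters. That motif was chosen after these sequences had been read, so the share beside it is no test. In the 150 bases before the start 0 members hold the E-box (3.93% of promoters), while the octamer is still in 2 (0.841%). The TATA box is in Gadd45g (14.3%). Neither the cAMP response element TGACGTCA (1.91% of promoters) nor the AP-1 site TGANTCA (7.33%) was matched in any of the 3 windows, with both strands searched. The marked motifs do not overlap one another, and a match is a description of letters. The share of G and C is 60.3% in Gadd45a and 64.3% in both Gadd45b and Gadd45g, against a promoter median of 52.3%. That is the 73.5th percentile of promoters for Gadd45a and the 82.2nd for Gadd45b and Gadd45g. The windows hold 14, 27 and 24 CpG dinucleotides in the order a, b, g, against a median of 7. Their percentiles are 65.4, 86.4 and 82.1.

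Values are RMA log2 intensities, so 1 unit is a doubling of signal. The arrays correlated with one another at between 0.9929 and 0.9967. Of 15 medium spiny neuron markers, which define the principal striatal neurons, 13 passed the filter. The lowest array value was 9.54 for Drd1, 11.21 for Drd2 and 11.8 for Ppp1r1b, above the 75th percentile of the arrays (8.53 to 8.59). Cortical markers varied between arrays: the score of 8 measured cortical neuron markers (the mean deviation from each marker's mean over the 15 arrays) was 1.12 on 30C replicate 1 and -1.59 on Sal replicate 1. The array 30C replicate 1 also had the lowest medium spiny neuron score, -0.45. The 25th percentile of the arrays lay between 5.53 and 5.59 at 30 days and between 5.48 and 5.51 at 1 day. In such bulk tissue, fewer cells of a type and less RNA per cell cannot be told apart.

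Gadd45g was highest in rats tested after 30 days. It was at 6.86, 6.73 and 6.62 in 30C, 6.56, 6.50 and 6.68 in 30W, 6.34, 6.57 and 6.45 in 1C, 6.29, 6.44 and 6.50 in 1W, and 6.43, 6.49 and 6.53 in Sal. All 3 of the 30C arrays lay above every 1C, 1W and Sal array, and they overlapped the 30W arrays. The group means ran 6.74 ± 0.12 in 30C, 6.58 ± 0.09 in 30W, 6.49 ± 0.05 in Sal, 6.45 ± 0.11 in 1C and 6.41 ± 0.11 in 1W (SD, n = 3 each). The arrays of each pair of neighbours in that order overlapped. From the lowest array (1W replicate 1) to the highest (30C replicate 1) the gene ranged over 0.57 log2 units, a 1.49-fold range. Its signal was above the median of all probe sets on 0 of 15 arrays, against 11 arrays for Gadd45a and 15 for Gadd45b, and its distance from background was not measured.

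Gadd45b was likewise highest in 30C and next in 30W, while the other 3 groups stood in the opposite order to that of Gadd45g. It was at 8.41, 8.27 and 8.22 in 30C, 8.11, 8.12 and 8.34 in 30W, 7.98, 8.18 and 8.07 in 1C, 8.15, 8.05 and 8.15 in 1W, and 8.05, 8.04 and 7.99 in Sal. The 30C arrays lay above all 1C, 1W and Sal arrays, and 30W replicate 3 reached into the 30C range. The means were 8.30 ± 0.10 in 30C, 8.19 ± 0.13 in 30W, 8.11 ± 0.06 in 1W, 8.07 ± 0.10 in 1C and 8.03 ± 0.04 in Sal (SD, n = 3 each). The arrays of neighbouring groups in that order overlapped. Over all arrays the gene ranged over 0.43 log2 units, 1.35-fold, with 1C replicate 1 the lowest and 30C replicate 1 the highest.

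Gadd45a had means between 6.97 and 7.06 in all 5 groups. Its values were 6.88, 6.95 and 7.18 in 30C, 7.07, 6.80 and 7.08 in 30W, 7.00, 7.12 and 7.06 in 1C, 6.96, 6.99 and 6.95 in 1W, and 7.02, 7.16 and 6.87 in Sal. The lowest and the highest array, 30W replicate 2 and 30C replicate 3, both came from 30-day groups. Its spread within groups was an SD of 0.121, against 0.089 for Gadd45b and 0.101 for Gadd45g.

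**Figure D1:**
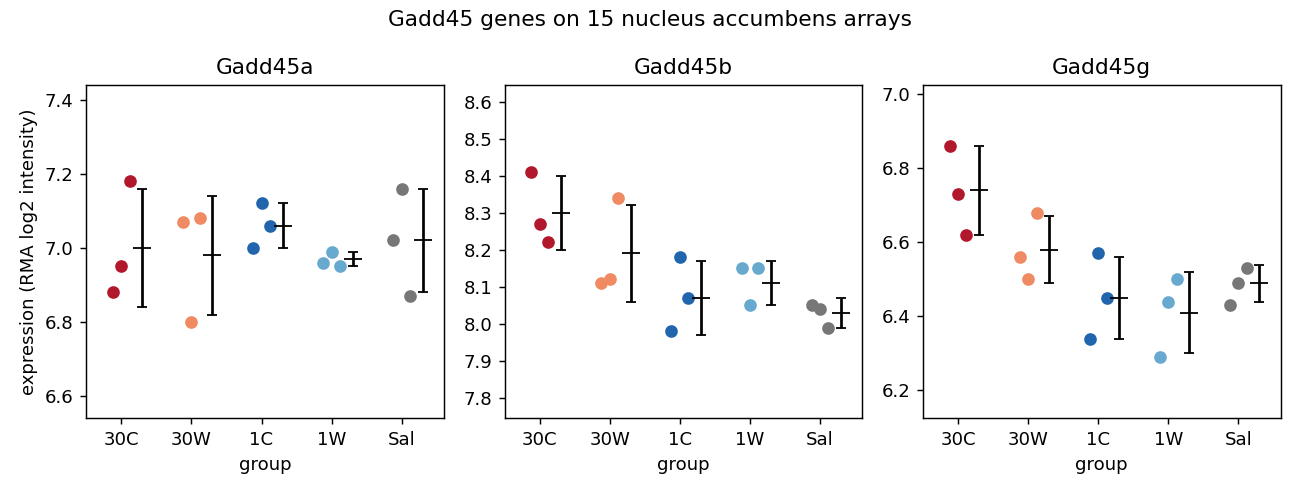
RMA log2 intensity of each Gadd45 gene (vertical axis) on the 15 arrays by group, 1 point per array, with the group mean and SD as a bar beside the points. The 30C points of Gadd45b and Gadd45g lie above all 1C, 1W and Sal points, while the Gadd45a groups overlap except 1C, which lies just above 1W.

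Among tested rats, 30C was set against 1C to compare the lengths of withdrawal. All differences are on the log2 scale. Gadd45g was higher in 30C by 0.29 (SE 0.08, 95% interval 0.12 to 0.46), which is 1.22-fold, and Gadd45b by 0.23 (SE 0.07, interval 0.07 to 0.38), which is 1.17-fold. Gadd45a differed by -0.06 (SE 0.09, interval -0.25 to 0.14). In limma, with Benjamini-Hochberg adjustment over all genes, 0 of 3 members passed, as did 0% of genes: the adjusted p was 0.641 for Gadd45g, 0.76 for Gadd45b and 0.959 for Gadd45a. At an unadjusted p under 0.05, 2 of 3 members were higher, against 2.41% of all genes, and by p Gadd45g ranked 49 and Gadd45b 110 of 11778. The groups did not overlap for these 2 members, against 3.82% of genes in that direction. Without 30C replicate 1 the differences were 0.22 for Gadd45g and 0.17 for Gadd45b. All 13 measured medium spiny neuron markers, all 12 microglia and macrophage markers, all 12 endothelial and mural markers and all 4 blood markers (median -0.32) were negative in this comparison, and their part in the member values was not tested. Of all genes 44.3% were positive in it. The medium spiny neuron scores were -0.45, 0.09 and 0.13 in 30C and -0.01, 0.00 and 0.17 in 1C, so that the low 30C value is that of replicate 1 alone.

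The comparison of 30W with 1W makes the same contrast without the test. Gadd45g was at 0.17 (SE 0.08, interval 0.00 to 0.34), Gadd45b at 0.08 (SE 0.07, interval -0.08 to 0.23) and Gadd45a at 0.02 (SE 0.09, interval -0.18 to 0.21). None passed in limma over all genes (adjusted p 0.492, 0.765 and 0.968, 0% of genes called). Gadd45g alone had an unadjusted p under 0.05, where 4.19% of genes were higher by that rule, and the 30W and 1W arrays overlapped for all 3 members, against 5.53% of genes lying higher without overlap. Without 30W replicate 3 the difference was 0.12 for Gadd45g and 0.00 for Gadd45b, and without 1W replicate 1 Gadd45g was at 0.11. All 11 oligodendrocyte markers (6 at an unadjusted p under 0.05), all 12 microglia and macrophage markers (4) and all 12 endothelial and mural markers (0) were negative, 7 of 8 cortical markers were positive, and their part was not tested. Of all genes 39.7% were positive in this comparison, and the share lower at an unadjusted p under 0.05 was not counted.

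Averaged over the test, 30 days against 1 day gave 0.23 (SE 0.06) for Gadd45g, 0.15 (SE 0.05) for Gadd45b and -0.02 (SE 0.06) for Gadd45a. The adjusted p in limma was 0.218, 0.279 and 0.924. Over all genes 1 passed (0.00849%), namely Cd180, an immune receptor gene named after its value was seen. At an unadjusted p under 0.05, 2 of 3 members were higher, Gadd45g and Gadd45b, against 5.54% of genes. The exact two-sided permutation test of each member's level within the test strata (6 arrays against 6, 400 arrangements, smallest possible p 0.005) gave p = 0.01 for Gadd45g, p = 0.035 for Gadd45b and p = 0.76 for Gadd45a. After Benjamini-Hochberg over the 6 averaged effects tested these were 0.06, 0.11 and 0.76, so that neither Gadd45g nor Gadd45b kept a p under 0.05. The 12 microglia and macrophage markers and the 12 endothelial and mural markers were all negative in this contrast, as were 12 of 13 medium spiny neuron markers, 10 of 11 oligodendrocyte markers and 3 of 4 blood markers (blood median -0.30), and their part was not tested. Of all genes 39.2% were positive in it. The 8 measured cortical markers were all positive, with scores of -0.85 to 1.12 in 30C, -0.06 to 0.25 in 30W, -0.51 to 0.40 in 1C and -0.60 to 0.23 in 1W. With that score as a covariate the differences were 0.22 for Gadd45g and 0.15 for Gadd45b. With a further quantile normalization, which levels the 25th percentiles of the arrays, they were 0.18 and 0.16.

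At 30 days, tested rats (30C) were set against untested ones (30W). Gadd45g was at 0.16 (SE 0.08, interval -0.01 to 0.32), Gadd45b at 0.11 (SE 0.07, interval -0.04 to 0.26) and Gadd45a at 0.02 (SE 0.09, interval -0.18 to 0.22). None passed in limma, with an adjusted p of 0.999 for each, and 0% of genes were called. At an unadjusted p under 0.05 there were 0 members, against 2.11% of genes higher, and the arrays of each member overlapped, against 4.51% of genes lying higher without overlap. Without 30C replicate 1 the Gadd45g difference was 0.09 and that of Gadd45b 0.06, and Gadd45b was at 0.07 without 30W replicate 1 and 0.18 without 30W replicate 3. All 13 measured medium spiny neuron markers were negative in this comparison, with scores of -0.45, 0.09 and 0.13 in 30C and 0.05, -0.04 and 0.08 in 30W, as were 11 of 12 endothelial and mural and 10 of 11 oligodendrocyte markers, and their part in the member values was not tested.

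At 1 day the corresponding contrast is 1C against 1W. Gadd45a was at 0.09 (SE 0.09, interval -0.10 to 0.29), Gadd45g at 0.04 (SE 0.08, interval -0.13 to 0.21) and Gadd45b at -0.04 (SE 0.07, interval -0.19 to 0.11). The 1C and 1W arrays of Gadd45a did not overlap, against 3.57% of genes in that direction, and its lowest 1C array (7.00) stood next to its highest 1W array (6.99). The adjusted p in limma was 1 for each member and 0% of genes were called, with 0 members and 1.86% of genes higher at an unadjusted p under 0.05. Averaged over both times, the test effect was 0.10 (SE 0.06) for Gadd45g, 0.06 (SE 0.06) for Gadd45a and 0.04 (SE 0.05) for Gadd45b, with an adjusted p of 0.999 for each in limma, and 0 members against 2.5% of genes were higher at an unadjusted p under 0.05. The exact two-sided permutation test within withdrawal strata gave p = 0.14, p = 0.41 and p = 0.56 in that order (0.28, 0.61 and 0.67 adjusted over the same 6). All 11 measured oligodendrocyte markers were negative in 1C - 1W (10 at an unadjusted p under 0.05) and in this averaged contrast (8), and their part was not tested. Of all genes 47.1% were positive in 1C - 1W and 48.7% in the averaged contrast, and the share lower by that rule was not counted. The difference between the test effect at 30 days and that at 1 day was 0.15 (SE 0.10) for Gadd45b, 0.12 (SE 0.11) for Gadd45g and -0.07 (SE 0.13) for Gadd45a, with an adjusted p of 0.999 for each in limma, 0% of genes called and 1.6% higher at an unadjusted p under 0.05. The intervals of these differences ran from -0.07 to 0.37 for Gadd45b and from -0.12 to 0.36 for Gadd45g. Without 30C replicate 1 they were 0.10 for Gadd45b and 0.05 for Gadd45g, and Gadd45g was at 0.06 without 1C replicate 1 and 0.07 without 1W replicate 3.

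Against Sal, the difference of Gadd45b and of Gadd45g was greater in 30C than in the other cocaine groups, which was not so for Gadd45a. Gadd45b was higher by 0.27 (SE 0.07, interval 0.12 to 0.43), 1.21-fold, and Gadd45g by 0.25 (SE 0.08, interval 0.08 to 0.42), 1.19-fold, while Gadd45a differed by -0.01 (SE 0.09). In limma the adjusted p was 0.676 for Gadd45b and 0.759 for Gadd45g, and 0% of genes were called. At an unadjusted p under 0.05, 2 of 3 members were higher, against 2.94% of genes, and for both the groups did not overlap, against 4.3% of genes. In 30W against Sal, Gadd45b was at 0.16 (SE 0.07, interval 0.01 to 0.32) and Gadd45g at 0.10 (SE 0.08, interval -0.07 to 0.27). Here 1 of 3 members, Gadd45b, had an unadjusted p under 0.05, against 4.25% of genes, and 0% passed after adjustment. Its 30W arrays lay above all Sal arrays, against 6.47% of genes in that direction. Without 30W replicate 3 the difference was 0.09 for Gadd45b and 0.05 for Gadd45g. All 11 oligodendrocyte markers were negative in 30C - Sal, all 13 medium spiny neuron markers were positive in 30W - Sal, and 7 of 8 cortical markers were positive in each, their part not being tested beyond the cortical covariate, with which Gadd45b in 30C - Sal was at 0.27. These comparisons and those below share the Sal arrays.

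At 1 day after cocaine the members lay near the saline level. In 1C against Sal, Gadd45b was at 0.05 (SE 0.07), Gadd45a at 0.04 (SE 0.09) and Gadd45g at -0.03 (SE 0.08). In 1W against Sal, Gadd45b was at 0.09 (SE 0.07), Gadd45a at -0.05 (SE 0.09) and Gadd45g at -0.07 (SE 0.08). No member had an unadjusted p under 0.05 in either comparison, where 2.1% and 2.78% of genes were higher by that rule, and in 1C 3.97% of genes and no member lay above Sal without overlap. After adjustment 0% of genes passed in limma. The 1W arrays of Gadd45b lay above its Sal arrays, by under 0.01 at the nearest pair, against 4.84% of genes in that direction. The intervals reached up to 0.24 for Gadd45a in 1C and for Gadd45b in 1W. All 13 measured medium spiny neuron markers were positive in both comparisons. All 11 oligodendrocyte markers were negative in 1C - Sal and positive in 1W - Sal. Endothelial and mural markers were positive for 11 of 12 in 1C - Sal and all 12 in 1W - Sal. Of 4 blood markers 3 were higher at an unadjusted p under 0.05 in each. The part of these markers in the member values was not tested. Over the 5 groups together, the moderated F test gave an adjusted p of 0.559 for Gadd45g, 0.61 for Gadd45b and 1.0 for Gadd45a, with 0% of genes past the threshold and 6.96% at an unadjusted p under 0.05.

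**Figure D2:**
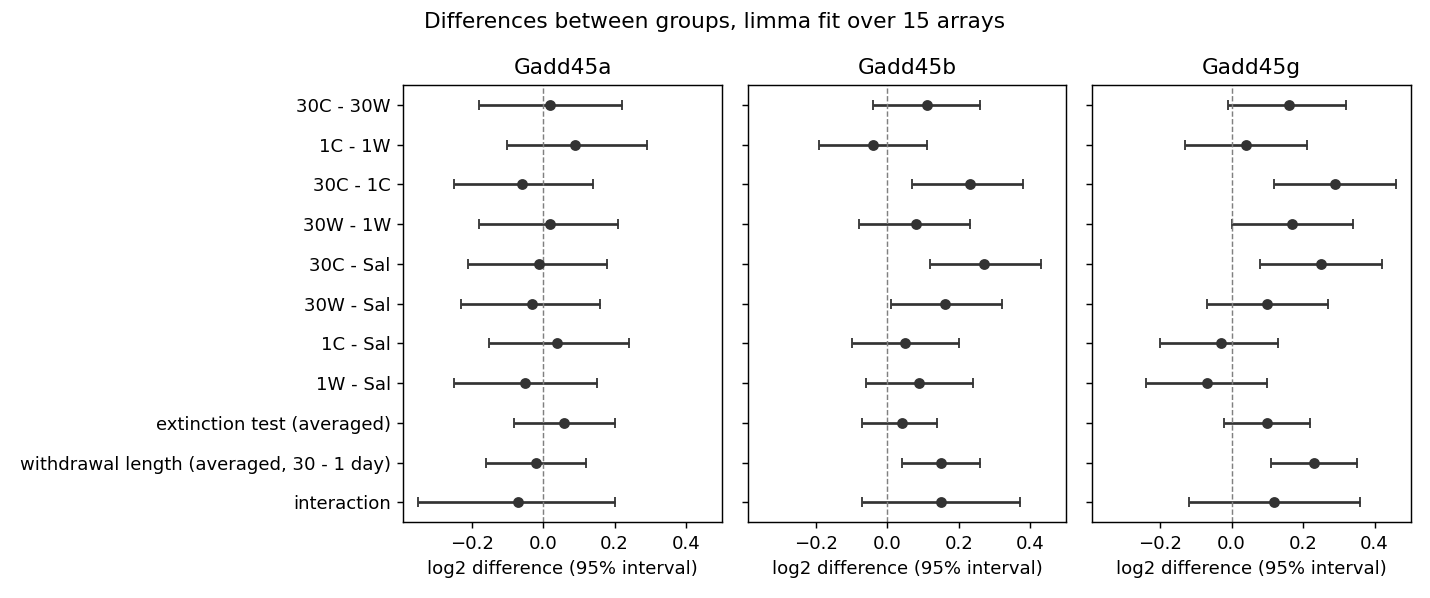
Log2 difference of each Gadd45 gene (horizontal axis) in the 11 comparisons, with 95% intervals from the fit over 15 arrays, and the first-named group above 0 where it was higher. The intervals of Gadd45b and Gadd45g lie above 0 in 30C - 1C, 30C - Sal and the averaged withdrawal contrast, before adjustment over genes. That of Gadd45b also does so in 30W - Sal, that of Gadd45g starts at 0.00 in 30W - 1W, and every Gadd45a interval includes 0.

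Gadd45b and Gadd45g varied together from array to array. Over the 15 arrays Pearson's r was 0.81 (permutation p = 0.0004, 0.0024 after Benjamini-Hochberg over 6 relations) and Spearman's rho 0.73 (permutation p = 0.0021, 0.012 adjusted). Without 30C replicates 1 and 2, the arrays farthest from the median of Gadd45g, r was 0.62. The permutations moved arrays freely across groups, so a shift that both genes share between groups also lowers these p-values. For deviations from the group means r was 0.68, within the 6 arrays at 30 days 0.94 and within the 6 arrays at 1 day 0.45, each without a p-value. By deviations, Gadd45g ranked 122 among all genes for Gadd45b, and Gadd45b ranked 131 for Gadd45g. The array 30C replicate 1 was the highest for both genes, 30W replicate 3 was the highest 30W array for both, and 1C replicate 1 was the lowest 1C array for both. Gadd45a had r = -0.02 with Gadd45b (permutation p = 0.93, rho 0.02, permutation p = 0.94) and r = -0.05 with Gadd45g (permutation p = 0.85, rho 0.04, permutation p = 0.90), with adjusted p of 0.93 and 0.94 for each r and rho, and r of 0.15 and 0.34 without the 2 farthest arrays. With the cortical score r was 0.37 for Gadd45g (permutation p = 0.17, rho 0.28, permutation p = 0.31), 0.23 for Gadd45b (permutation p = 0.41, rho 0.03, permutation p = 0.91) and -0.24 for Gadd45a (permutation p = 0.39, rho -0.07, permutation p = 0.81). For deviations from the group means r was 0.51, 0.26 and -0.25 in that order of genes, within the 6 arrays at 30 days 0.60, 0.49 and -0.56, and within the 6 at 1 day 0.16, 0.38 and 0.57. Without Sal replicate 1 and 30C replicate 1 the values over the remaining arrays were -0.02, -0.28 and -0.14, and the adjusted p was 0.51, 0.62 and 0.62 for r and 0.94 for each rho.

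**Figure D3:**
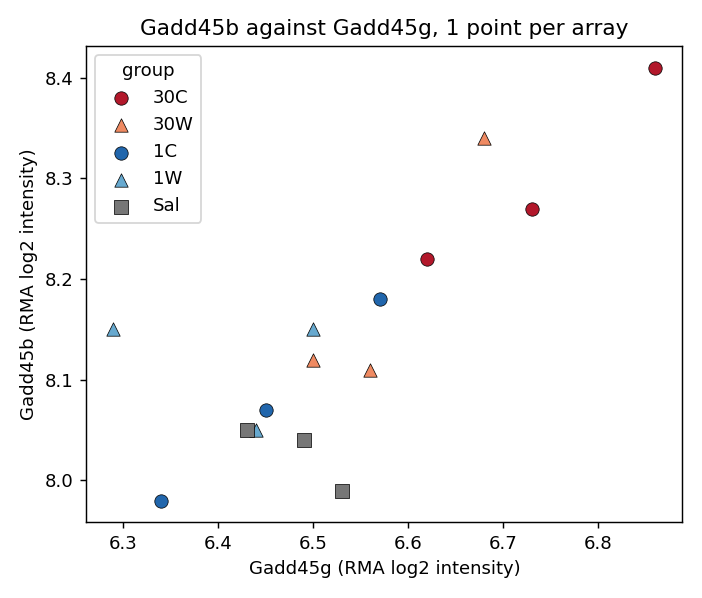
Gadd45b against Gadd45g, both as RMA log2 intensity, 1 point per array, with colour and shape giving the group. The 1C arrays run from the lower left upward, 1W replicate 1 stands off at the left (6.29 and 8.15), and 30C replicate 1 is at the upper right (6.86 and 8.41).

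The genes most like each member were taken by Pearson's r over the 15 arrays, as a description in which the arrays share their groups and their tissue makeup. For Gadd45g they were Fos (0.90), Shank2 (0.87), Arc (0.81), Ntf4 (0.81), Dusp1 (0.81) and Gadd45b (0.81). Fos, a component of the AP-1 transcription factor, Arc, a synaptic regulator of AMPA receptors, and Dusp1, a phosphatase that inactivates MAP kinases, are immediate early genes. For deviations from the group means Fos was again at 0.90, ranking 2 after Prrt1 (0.91), followed by Panx1 (0.85), Odf1 (0.85), Cdipt (0.84) and Snap29 (0.84). Ntf4 and Odf1 had low signal, at most 6.10 and 6.20, below the lowest array median (6.89). Fos was at 8.37, 7.89 and 7.83 in 30C, 7.61, 7.35 and 7.65 in 30W, 7.32, 7.81 and 7.60 in 1C, 7.03, 7.26 and 7.28 in 1W, and 7.40, 7.43 and 7.73 in Sal. In both genes 30C replicate 1 was the highest array and 1W replicate 1 the lowest. Npas4, a neuronal activity-dependent transcription factor gene, had r = 0.81 with Gadd45g, Nfil3, a basic leucine zipper repressor gene, 0.81, Egr1 0.79 and Nr4a1 0.72.

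For Gadd45b the leading genes were Ier3ip1-ps1 (0.92), Plekha4 (0.86), Erich4 (0.84), Ddit4 (0.84), Nog (0.83) and Gadd45g (0.81). Ddit4 encodes REDD1, a stress-induced inhibitor of mTOR signalling, and Nog the BMP antagonist noggin. Ddit4 was at 9.25, 9.19 and 9.25 in 30C, 9.04, 9.03 and 9.27 in 30W, 9.07, 9.21 and 9.09 in 1C, 9.07, 8.96 and 9.07 in 1W, and 9.02, 9.09 and 8.97 in Sal. Replicate 3 of 30W stood above the other 30W arrays in both genes. Fos had r = 0.64 with Gadd45b, Npas4 0.55 and Egr1 0.43, each lower than with Gadd45g. For deviations from the group means the leading genes were Or4b1c (0.94), Erich4 (0.92), Polr2b (0.90), Eif2ak3 (0.88), Ier3ip1-ps1 (0.85) and Amigo1 (0.84), and Ddit4 stood at 0.83. Several of these leading genes had low signal. The highest array value was 6.42 for Ier3ip1-ps1, 6.59 for Plekha4, 6.53 for Erich4 and 6.02 for Or4b1c, below the lowest array median (6.89). Their distance from background was not measured.

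For Gadd45a they were Slc15a3 (0.85), the dopamine receptor gene Drd3 (0.83), Fbxl5 (0.79), the endothelial gene Pecam1 (0.78), Morc3 (0.78) and Esyt1 (0.77). For deviations from the group means they were Slc15a3 (0.90), Clec2g (0.88), Tnfsf10 (0.88), Igtp (0.88), Gorab (0.87) and Esam (0.86), the last an endothelial adhesion gene. None of the 6 leading genes of either measure was shared with Gadd45b or Gadd45g, and Fos had r = 0.03 with Gadd45a. No other measured endothelial and mural marker than Pecam1 and Esam was among these leading genes. The endothelial and mural score ranged from -0.19 to 0.03 in 30C, -0.07 to 0.09 in 30W, 0.03 to 0.07 in 1C, 0.05 to 0.13 in 1W and -0.12 to -0.01 in Sal, and its part in the Gadd45a values was not tested. The mean score was highest in 1W (0.09), where Gadd45a had its lowest group mean (6.97). It was next highest in 1C (0.06), where Gadd45a had its highest group mean (7.06).

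**Figure D4:**
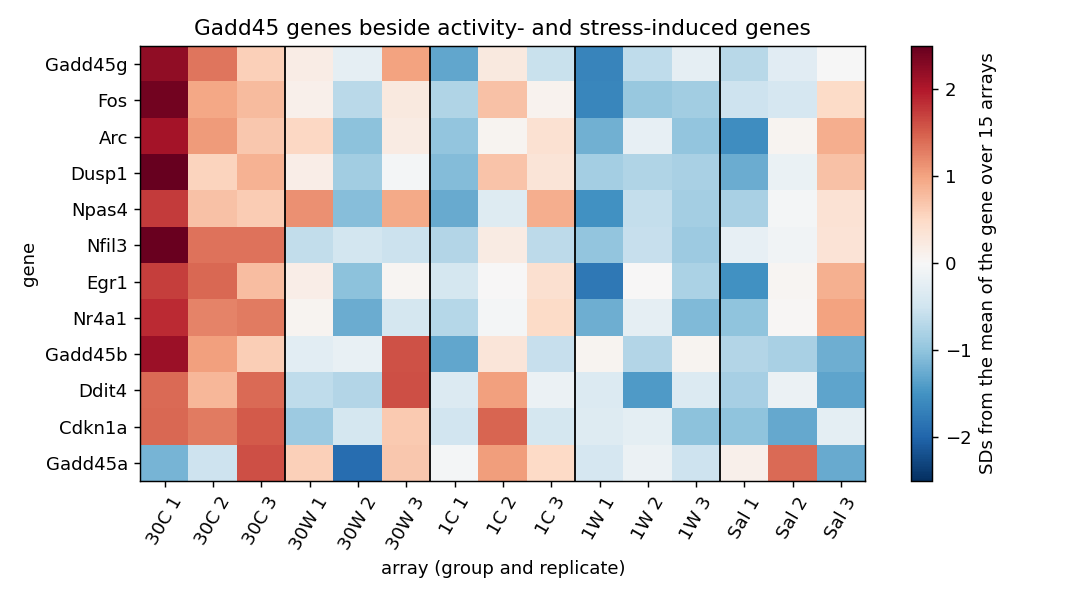
Level of each gene on each array as SDs from that gene's mean over 15 arrays, with genes down the page and arrays by group and replicate across it. The Gadd45g row is deepest red on 30C replicate 1 and blue on 1W replicate 1, as is the Fos row, Gadd45b and Ddit4 are both red on 30W replicate 3, and Gadd45a has its lowest value on 30W replicate 2.

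The partners of the family were followed in 7 lists of 98 genes, of which 83 were measured, and 0 of these passed in limma over all genes in any of the 11 comparisons. Of 14 genes in the MAP kinase relay, 13 were measured, with a median log2 difference of -0.02 in both 30C - 30W and 30C - 1C, where the median of all genes was 0.004 and -0.01. Map3k4, the kinase that Gadd45 proteins bind, was at 0.00 (SE 0.08) in 30C - 30W and -0.08 (SE 0.08) in 30C - 1C. Map2k7, the JNK kinase that Gadd45b inhibits, was at 0.02 (SE 0.06) and -0.03 (SE 0.06). The p38 gene Mapk14 was at -0.01 (SE 0.06) and -0.04 (SE 0.06).

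Among 10 measured cell cycle and growth arrest partners, Cdkn1a, which encodes the cyclin-dependent kinase inhibitor p21, had the greatest difference in 30C - 30W. It was at 8.48, 8.44 and 8.51 in 30C, 7.73, 7.88 and 8.23 in 30W, 7.87, 8.49 and 7.88 in 1C, 7.92, 7.94 and 7.69 in 1W, and 7.70, 7.61 and 7.94 in Sal. The 30C arrays lay above all 30W, 1W and Sal arrays and overlapped 1 of the 1C arrays. The log2 difference was 0.53 (SE 0.16) in 30C - 30W and 0.39 (SE 0.16) in 30C - 1C, without passing after adjustment in limma (adjusted p 0.999 and 0.835). Pcna, the polymerase clamp, was at -0.01 (SE 0.08) and -0.12 (SE 0.08) in these comparisons, Ccnb1, cyclin B1, at 0.03 (SE 0.09) and -0.17 (SE 0.09), and Gadd45gip1, which encodes a Gadd45-binding protein, at 0.01 (SE 0.05) and -0.02 (SE 0.05). Cdk1 did not pass the filter.

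Of 19 genes of active DNA demethylation, 11 were measured, with median differences of -0.02 in 30C - 30W and -0.03 in 30C - 1C. The glycosylase gene Tdg was at 0.01 (SE 0.05) and 0.03 (SE 0.05), and Ing1, which encodes a chromatin reader that recruits Gadd45a, at -0.02 (SE 0.11) and -0.08 (SE 0.11). Apobec1, a cytidine deaminase gene, was at 6.23, 6.33 and 6.17 in 30C and 6.45, 6.49 and 6.55 in 1C, a difference of -0.25 (SE 0.05, adjusted p = 0.607 in limma). It is named after its values were seen. Of 6 neuronal genes demethylated beside Gadd45b, 5 were measured, and 4 were positive in 30C - 30W and 3 in 30C - 1C. The neurotrophin gene Bdnf was at 0.14 (SE 0.15) in 30C - 30W and 0.23 (SE 0.15) in 30C - 1C, and Fgf1 at 0.19 (SE 0.23) and 0.09 (SE 0.23). Tet1, Tet2, Tet3, Ercc5, Taf12 and Btg2 were not analysed here, since no probe set was paired with that symbol alone.

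Of 15 measured upstream regulators 9 were positive in 30C - 30W and 4 in 30C - 1C, with medians of 0.02 and -0.04. Foxo3, a forkhead factor gene, was at 0.02 (SE 0.06) and -0.07 (SE 0.06), the integrated stress response factor Atf4 at 0.05 (SE 0.11) and 0.08 (SE 0.11), the NF-κB subunit Rela at 0.10 (SE 0.06) and -0.04 (SE 0.06), and Creb1 at 0.03 (SE 0.05) and -0.04 (SE 0.05). Of 9 measured stress-induced genes 7 were positive in each comparison, with a median of 0.08 in both. Of 23 measured immediate early genes, 22 were positive in 30C - 30W and 23 in 30C - 1C, with medians of 0.44 and 0.40, and 14 were higher at an unadjusted p under 0.05 in each, against 2.11% and 2.41% of all genes. The member differences in the same comparisons, 0.16 and 0.29 for Gadd45g and 0.11 and 0.23 for Gadd45b, were below those medians. These 2 comparisons share the 30C arrays. The immediate early gene list was chosen with earlier results of these data known, so its counts are a description and not a test.

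**Figure D5:**
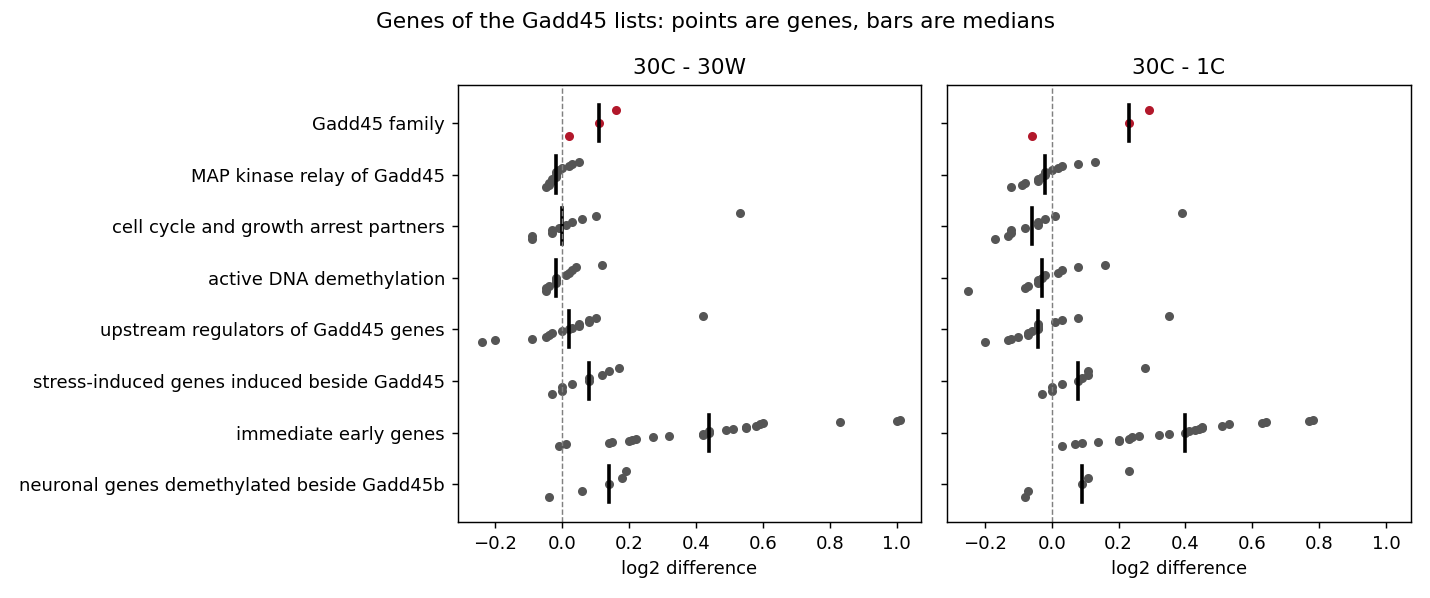
Log2 difference (horizontal axis) of each measured gene of the Gadd45 family and of the 7 partner lists in 30C - 30W (left) and 30C - 1C (right), with the list median as a bar. The immediate early gene medians stand at 0.44 and 0.40, the MAP kinase relay medians at -0.02, and the point at 0.53 and 0.39 in the cell cycle list is Cdkn1a.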

How the data were processed

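Total RNA of the nucleus accumbens was measured on 15 Affymetrix arrays, 3 in each of 5 groups taken from the labels. The deposited values are log2 intensities made by RMA, per the submitters' processing notes, and they could not be rebuilt from the scanner signal here. The labels' protocols name a 3' IVT labelling kit, while the probe set numbers look like those of a Gene ST type of array. Which labelling was used is not settled here. Of 28826 probe sets, 15209 have 1 symbol, 306 several and 13311 none here, and 15178 of the named ones matched RefSeq GRCr8 by gene number. Each of 14497 genes was represented by its brightest probe set on average, and 11778 genes that exceeded the 30th percentile in 3 or more arrays were tested. One limma fit (limma 3.58.1, R 4.3.3) over all 15 arrays, with group as its term, gave moderated tests with Benjamini-Hochberg adjustment over all genes within a comparison and a threshold of 0.05. It was tested on simulated data with changes larger than any member difference, so recovery at the size of the member differences was not measured. Single members were also compared by exact permutation tests over arrays, where 3 against 3 cannot go below 0.1. The number of arrays limits the precision. Sequences are RefSeq's, and the E-box was chosen after the sequences had been read. The members and gene lists were chosen with earlier results of these data known. Named genes are the members, a set listed by role, and the 6 genes with the highest correlation to each member by level and by deviation from the group means. The fit did not pair arrays by replicate number. Deviations from the group means of same-numbered arrays correlated at -0.63 to 0.51, with 10 of 30 pairs above 0.1. Other-numbered pairs ran from -0.51 to 0.6, with 21 of 60 above 0.1. Pooled over all groups, these values cannot exclude a pairing within some groups. In order of replicate, the 25th percentiles were 5.54, 5.59 and 5.53 in 30C and 5.55, 5.59 and 5.53 in 30W. The alternatives changed the filter, the probe set, the normalization, the variance model, the array weights, the arrays fitted, a block or covariate, and left out each array. One gene list of the design is not reported here.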

Additional observations from a re-analysis of the deposited data

How the results depend on the processing

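No member passed the threshold in limma under any of 957 alternatives to the 36 member results, and 24 of these, in 12 results near 0, turned the direction. The cause was not tested. In 30W - 1W Gadd45a was at -0.02 with a further quantile normalization, -0.02 with median centring and -0.01 with cyclic loess, which was chosen after seeing the data. With array weights it was at -0.02 in 1C - Sal and 0.01 in the averaged withdrawal contrast. Leaving out 1 array at a time, Gadd45a ran from -0.07 to 0.08 in 30C - 30W, -0.14 to 0.00 in 30C - 1C, -0.03 to 0.11 in 30W - 1W, -0.10 to 0.06 in 30C - Sal and in 30W - Sal, -0.03 to 0.11 in 1C - Sal, -0.12 to 0.02 in 1W - Sal and -0.06 to 0.03 in the averaged withdrawal contrast. Gadd45b ran from -0.09 to 0.01 in 1C - 1W and 0.00 to 0.10 in 1C - Sal, and Gadd45g from -0.02 to 0.09 and from -0.09 to 0.02. Gadd45g in 30C - 1C ran from 0.22 to 0.34 and Gadd45b in 30C - Sal from 0.22 to 0.31. With the replicate block Gadd45g was at 0.29 in 30C - 1C, and the block changed no member's call. Under the stricter filter at the array median Gadd45g gave no value. Of all genes, the averaged withdrawal contrast called 2 with that filter, 4 with quantile normalization, 2 with median centring, 4 with cyclic loess, 6 with array weights, 0 with only the arrays compared, and 0 to 3 without 1 array. Array weights called 1 gene in 30C - 30W, 2 in 30C - 1C and 3 in 30W - 1W, and the cortical covariate 1 in each of 30C - 30W, 30C - 1C and the F test and 3 in the averaged test contrast. Without 1 array the calls ran from 0 to 1 in 30C - 30W, 30W - 1W, 1C - 1W and 1C - Sal, and from 0 to 2 in 30C - 1C and the F test.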
